A study of Mus musculus with 14 samples.

Results

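The experiment described here compares 3 libraries of MC903-treated skin from mice lacking Il4ra in Pdgfra-expressing cells (called cKO below) with 2 libraries of untreated wild-type skin, 5 of the 14 libraries in the series, and asks which parts of the MC903 response are still seen in the cKO libraries. All libraries are polyadenylated RNA from frozen and cryosectioned neck skin of C57BL/6J mice labelled female. The cKO mice carried Pdgfra-CRE and Il4ra fl/fl and were 6 to 7 weeks old. They received no injections, and 1 nmol of MC903 in 100 µL, with ethanol as the solvent, went daily onto the shaved neck for 6 days. The untreated mice were wild type, 6 weeks old, and carried neither Cre nor the floxed allele, so genotype and MC903 cannot be told apart in this comparison. Whether vehicle was put on the untreated skin is not stated, nor whether their library names, which differ only by a suffix, stand for different mice. A pair of other MC903 arms is given beside the results: Il4ra fl/fl mice without Cre (3 libraries, 6 to 7 weeks, same treatment) and wild-type mice of 6 weeks injected with an isotype antibody before and during MC903 (3 libraries). Another 3 MC903 libraries, from wild-type mice of 6 weeks given MAR1 (an antibody to FcεRIα, part of the IgE receptor), entered the fit and are given for a few genes. The isotype antibody and MAR1 were given at 20 µg, with 3 injections before MC903. The Cre is driven by Pdgfra, which marks fibroblasts but not fibroblasts alone.

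MC903 (calcipotriol) is a vitamin D analogue. It binds the vitamin D receptor, induces the epithelial cytokine TSLP in keratinocytes and is used to cause a dermatitis that resembles atopic dermatitis. IL-4Rα, encoded by Il4ra, is the chain that the receptors for IL-4 and IL-13 share, and signals through JAK kinases and STAT6. In inflamed epidermis keratinocytes divide faster, switch to stress keratins such as Krt16 and Krt6a, and make cornified envelope proteins, which are cross-linked under the cell surface as the outer barrier.

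All late cornified envelope 3 genes and most stefin genes tested rose, both being families of neighbouring copies, and the starts of 6 of them are shown so that their likeness can be seen. Promoters are from RefSeq on GRCm38.p6 and run from 250 bases before to 50 bases after the start of the gene, 5′ to 3′ on the gene's strand. Capitals in the late cornified envelope 3 (LCE3) promoters mark ATAAAAG, searched on both strands. This motif was chosen after the sequences were read, as was that of the stefins below.
Lce3b: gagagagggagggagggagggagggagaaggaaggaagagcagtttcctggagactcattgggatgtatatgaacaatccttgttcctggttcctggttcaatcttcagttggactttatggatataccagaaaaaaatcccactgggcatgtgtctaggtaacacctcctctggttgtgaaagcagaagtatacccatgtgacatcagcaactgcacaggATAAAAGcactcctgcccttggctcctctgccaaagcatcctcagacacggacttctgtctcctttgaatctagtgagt
Lce3d: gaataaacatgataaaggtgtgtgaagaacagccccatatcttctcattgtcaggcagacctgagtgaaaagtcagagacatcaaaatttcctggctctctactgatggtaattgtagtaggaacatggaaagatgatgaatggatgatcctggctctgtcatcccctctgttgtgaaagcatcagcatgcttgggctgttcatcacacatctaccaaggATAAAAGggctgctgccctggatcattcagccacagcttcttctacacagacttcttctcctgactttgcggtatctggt
Lce3e: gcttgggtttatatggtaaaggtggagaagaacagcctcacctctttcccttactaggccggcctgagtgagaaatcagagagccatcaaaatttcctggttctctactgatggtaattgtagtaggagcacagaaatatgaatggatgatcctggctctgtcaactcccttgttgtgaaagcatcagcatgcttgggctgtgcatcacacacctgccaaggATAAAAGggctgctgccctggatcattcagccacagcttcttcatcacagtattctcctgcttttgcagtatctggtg
Lce3f: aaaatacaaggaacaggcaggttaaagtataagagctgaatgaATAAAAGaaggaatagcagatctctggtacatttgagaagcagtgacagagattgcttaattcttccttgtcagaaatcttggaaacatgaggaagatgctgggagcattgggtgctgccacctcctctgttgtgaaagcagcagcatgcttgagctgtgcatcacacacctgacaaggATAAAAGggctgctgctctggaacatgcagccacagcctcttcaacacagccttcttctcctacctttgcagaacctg
These lie at chr3:92932729-92933028, plus strand (Lce3b), chr3:92957140-92957439, plus strand (Lce3d), chr3:92966811-92967110, plus strand (Lce3e) and chr3:92991967-92992266, plus strand (Lce3f). ATAAAAG was found in 5 of the 6 LCE3 promoters, in each of them with a match starting 28 to 30 bases before the gene's start, and in 5.42% of all 32841 promoters of this length. Promoters of Lce3d and Lce3e were 83.4% identical over their alignment, while Lce3b and Lce3e were 55.8% identical. In the stefin promoters the capitals mark CTTTAAAACC, the 10 bases that start 32 bases before the Stfa3 start.
Stfa2: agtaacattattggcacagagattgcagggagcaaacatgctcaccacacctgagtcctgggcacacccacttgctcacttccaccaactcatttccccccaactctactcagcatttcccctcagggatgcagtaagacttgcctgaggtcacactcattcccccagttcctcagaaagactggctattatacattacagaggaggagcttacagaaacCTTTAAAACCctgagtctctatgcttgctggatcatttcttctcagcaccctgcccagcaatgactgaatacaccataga
Stfa3: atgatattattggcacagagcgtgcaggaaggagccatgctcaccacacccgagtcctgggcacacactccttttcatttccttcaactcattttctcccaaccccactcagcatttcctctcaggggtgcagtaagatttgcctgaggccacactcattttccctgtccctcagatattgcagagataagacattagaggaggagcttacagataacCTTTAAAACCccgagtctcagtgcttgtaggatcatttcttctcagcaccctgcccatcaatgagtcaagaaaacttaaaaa
They lie at chr16:36408314-36408613, minus strand (Stfa2) and chr16:36455343-36455642, minus strand (Stfa3) and were 80.9% identical. CTTTAAAACC was found in promoters of 8 of the 10 stefin and cystatin-like genes in the table, out of 12 listed, and in 0.128% of all promoters. The motifs are descriptions of these letters. Reads from near-identical copies can be split between them, so values of single LCE3, SPRR, stefin and Skint genes are uncertain.

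For the vitamin D receptor, promoters of the called target genes S100g, Slc34a2 and Tnfsf11 are shown because each rose. The motif searched, on both strands, was the DR3 vitamin D response element, a direct repeat of 2 half-sites of 6 bases with a spacer of 3 bases, where 8 spellings of the half-site were allowed, AGGTCA among them. No letter is in capitals because none matched.
S100g: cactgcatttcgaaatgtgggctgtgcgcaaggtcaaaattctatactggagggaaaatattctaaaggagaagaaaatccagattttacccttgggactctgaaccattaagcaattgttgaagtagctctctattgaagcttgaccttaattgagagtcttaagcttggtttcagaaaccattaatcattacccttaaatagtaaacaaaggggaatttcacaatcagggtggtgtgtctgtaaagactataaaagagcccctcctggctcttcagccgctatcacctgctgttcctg
Slc34a2: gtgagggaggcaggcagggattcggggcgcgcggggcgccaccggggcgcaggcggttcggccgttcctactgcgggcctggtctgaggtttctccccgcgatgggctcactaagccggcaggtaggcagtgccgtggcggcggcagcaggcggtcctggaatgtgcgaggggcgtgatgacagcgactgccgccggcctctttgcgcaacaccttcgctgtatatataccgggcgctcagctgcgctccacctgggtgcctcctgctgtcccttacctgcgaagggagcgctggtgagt
Tnfsf11: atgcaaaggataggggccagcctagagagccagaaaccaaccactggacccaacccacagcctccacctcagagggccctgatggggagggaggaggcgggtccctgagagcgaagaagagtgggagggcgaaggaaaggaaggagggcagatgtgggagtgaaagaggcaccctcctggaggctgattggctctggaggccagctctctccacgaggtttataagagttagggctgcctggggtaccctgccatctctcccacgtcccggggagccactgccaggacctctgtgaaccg
They lie at chrX:162964550-162964849, minus strand (S100g), chr5:53049103-53049402, plus strand (Slc34a2) and chr14:78307994-78308293, minus strand (Tnfsf11). The element was not found in the promoters of the 8 targets in the table, of 12 listed, and 0.256% of all promoters held it. Cyp24a1 and Car2, which also rose, had no promoter there and were not searched. A target's response elements can lie outside a window of 300 bases.

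The libraries differed in ways that move with the groups. Total counts were 55299671 and 37521440 in the untreated libraries, and 25855707, 30830666 and 16501941 in cKO libraries 1, 2 and 3. Olfactory and vomeronasal receptor genes, known from sensory neurons of the nose, took 1.48%, 0.467% and 2.58% of the counts in the cKO libraries, against 0.0486% and 0.277% in the untreated, 0.0479% to 0.0768% in the fl/fl and 3.86% to 9.29% in the MAR1 libraries. Mitochondrially encoded transcripts took 2.57% and 4.23% of the untreated and 1.71%, 2.6% and 0.476% of the cKO libraries. Immediate early genes took 0.819% of untreated library 1 and 0.107% of untreated library 2. Skeletal muscle markers took 0.29% and 2.2% of the untreated, 0.00453% to 0.483% of the cKO and 1.35% to 6.08% of the fl/fl libraries. In cKO library 1, which is labelled female, transcripts of the Y chromosome were found, Ddx3y with 69.8 and Eif2s3y with 53.3 CPM (counts scaled for library depth, with TMM factors), and cKO libraries 2 and 3 had none. Keratins that mark keratinocytes were abundant in both groups: the mean of Krt5 was 2230 CPM in cKO and 2500 CPM in untreated skin, and that of Krt10 was 3730 and 5800 CPM. The part of these library differences in the results was not tested beyond the fits given with them.

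**Figure D1:**
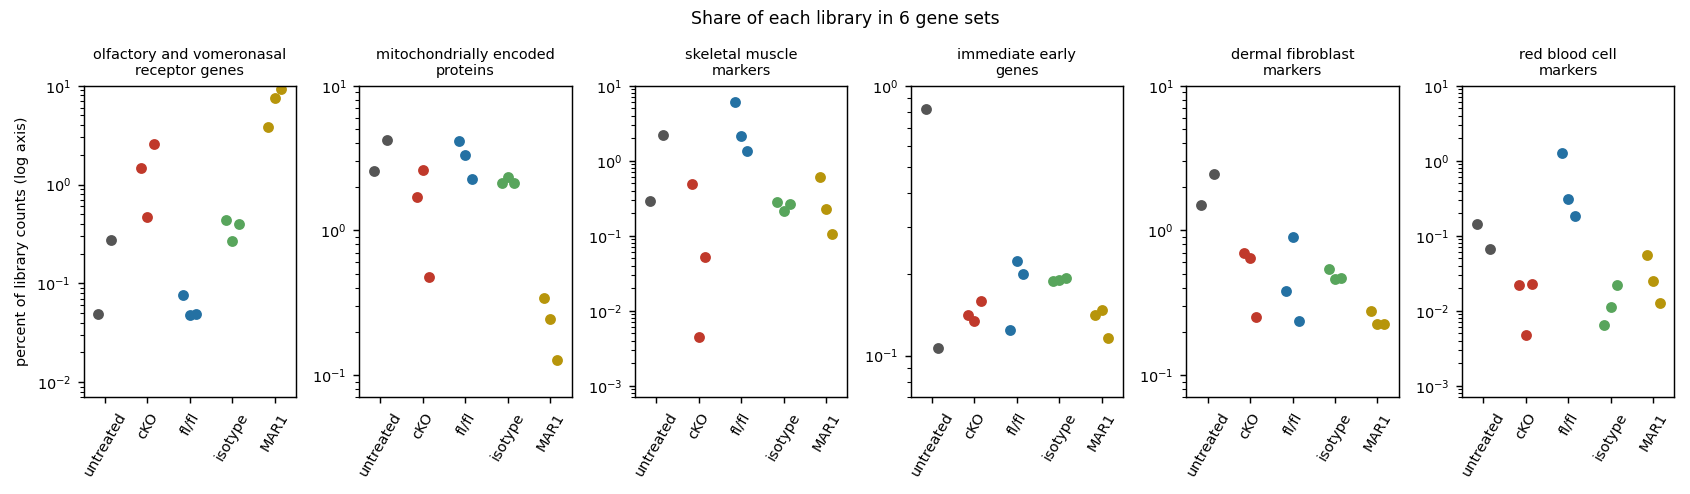
Share of each library's counts (log axis, percent) in 6 gene sets, 1 point per library, by group. All 3 cKO libraries stand above the untreated libraries in the receptor gene share, and untreated library 1 stands above all others in immediate early genes.

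Il4ra itself, the gene targeted in the cKO mice, stood at 59.2 and 104 CPM in the untreated and 70.6, 67.7 and 14.4 CPM in the cKO libraries. In the fl/fl libraries it was at 214, 145 and 176 CPM and with isotype at 195, 178 and 192 CPM. The cKO values thus overlapped the untreated values (log2 fold change -0.68 ± 0.62 (SE), adjusted p = 0.474), and all were below those of the fl/fl libraries (log2 difference -1.81 ± 0.57 (SE), adjusted p = 0.0427). The difference from fl/fl missed the threshold whenever 1 cKO or fl/fl library was left out (adjusted p 0.0524 to 0.238), with a log2 difference of -1.04 without cKO library 3. The difference was -0.80 with the receptor gene share as a covariate (adjusted p = 0.911). The 3 MAR1 libraries, which carry no deletion, had 45.7, 23.2 and 9 CPM. Counts are per gene and do not separate the deleted exons, and cells without Pdgfra keep the gene. Pdgfra was at 52.2 and 81.3 CPM in untreated and 34.8, 70.2 and 33 CPM in cKO skin, an overlap (log2 fold change -0.54 ± 0.46 (SE), adjusted p = 0.448).

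In cKO skin after MC903, 809 genes rose and 620 fell against untreated skin, of 20940 tested (edgeR's quasi-likelihood test, two-sided, Benjamini-Hochberg adjusted p under 0.05 over all genes tested). That is 6.82% of the genes tested, 3.86% risen and 2.96% fallen. The groups did not overlap in 807 of the risen and 613 of the fallen genes. Of all 20940 genes, called or not, 4367 stood higher and 4611 lower in cKO without overlap. A lack of overlap between 3 and 2 libraries was thus common without a call. Over all genes the median change was 0.06 on the log2 scale, and RLE scaling moved it to 0.21. Of the risen genes, 69 were olfactory or vomeronasal receptor genes (of 666 tested) and 172 were uncharacterized genes (of 2820). Among the other 17381 genes 567 rose and 610 fell. The count rests on untreated library 1: without it 107 genes changed, and without untreated library 2, 1813. Without cKO library 3 the count was 407, and without cKO library 1, which holds Y-linked transcripts, 791. With the receptor gene share as a covariate 125 genes changed, and without the MAR1 libraries 848. The receptor gene share is higher in every cKO than in every untreated library, so this covariate cannot fully separate the share from the group. A call lost with it, here or below, does not show why the gene changed. Of the 1429 calls, 64 (38 risen, 26 fallen) were made with the same sign with each of the 5 libraries left out in turn, and 27 (26 risen, 1 fallen) in all alternatives run except the fold minimum.

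Of the 27 genes called in all of those settings, 12 were on the stefin, LCE3, cornified envelope, stress keratin or antimicrobial lists. The genes were Cyp24a1, the stefin and cystatin-like genes Csta3, Cstdc5, Cstdc6, Stfa2, Stfa2l1 and Stfa3, the LCE3 genes Lce3d and Lce3e, the cornified envelope genes Rptn and Tchh, the stress keratin Krt16, the protease inhibitor Wfdc12, the pore-forming Gsdmc, the phospholipase Pla2g4d and the fatty acid elongase Elovl3. The others that rose were Cdca3, Cyp1a1, Ecel1, Gm13398, Mgst2, Pctp, Rbp2, Serpina9, Tdh and Tubb3. Igfbp6, which encodes a binding protein for insulin-like growth factors, was the gene that fell. Csta3, Gsdmc, Igfbp6 and those 10 others fall outside the rule for named genes and were chosen after their values were seen.

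The gene with the largest increase was a vitamin D receptor target. Of 12 such targets tested, 5 rose and none fell, with a median log2 fold change of 1.64, against 3 risen in fl/fl and 4 with isotype. Those comparisons share the untreated libraries, and over all genes they called 1.72% in fl/fl (0.769% risen, 0.95% fallen) and 3.07% with isotype (1.35% risen, 1.72% fallen). Cyp24a1, the hydroxylase that breaks down active vitamin D, was at 0 and 0.0237 CPM in the untreated libraries (1 count in all) and at 1009, 2035 and 1782 CPM in the cKO libraries. All cKO values were thus far above the untreated ones, a ratio of 158000 with a 95% counting interval of 28300 to 6230000 (log2 fold change 16.76 ± 1.57 (SE), adjusted p = 0.00041). Cyp24a1 was at 1025, 1723 and 10540 CPM in fl/fl, and cKO overlapped these (log2 difference -1.46 ± 0.68 (SE), adjusted p = 0.14). Car2, a carbonic anhydrase, was at 1.77 and 2.15 CPM in untreated and 13.2, 28.1 and 13.3 CPM in cKO skin (log2 fold change 3.21 ± 0.59 (SE), adjusted p = 0.0133). Tnfsf11, which encodes the osteoclast factor RANKL, was at 0.389 and 0.118 CPM in untreated and 4.81, 6.85 and 2.23 CPM in cKO skin (log2 fold change 4.15 ± 0.87 (SE), adjusted p = 0.0204). In both genes every cKO library was above the untreated ones. S100g, a calcium-binding protein, rose as well, from 0.477 and 0.734 to 2.94, 10.3 and 9.87 CPM (adjusted p = 0.0278), and so did the phosphate transporter Slc34a2 (adjusted p = 0.0475). Vdr, the receptor, was at 67.1 and 45.1 CPM in untreated and 62, 60.9 and 57.2 CPM in cKO skin (log2 fold change 0.10, adjusted p = 0.924). With 1 library left out at a time 1 to 5 targets were called, 1 (Cyp24a1) without untreated library 1.

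Stefins and LCE3 genes were the groups with the largest share of members risen. Of 11 stefin and cystatin-like genes tested, which encode inhibitors of cysteine proteases, 9 rose, and of 6 LCE3 genes all 6 rose. Their median log2 fold changes were 9.59 and 11.95, or 8.08 and 8.87 where genes with no counts in untreated skin are set at the floor of 3 counts per library. In fl/fl and in isotype skin 9 and 6 rose. Stfa3 was at 4.05 and 1.18 CPM in untreated and 1793, 2247 and 2054 CPM in cKO skin (log2 fold change 9.59 ± 0.77 (SE), adjusted p = 0.000112). Cstdc5 was at 5.41 and 0.687 CPM in untreated and 4239, 5563 and 5417 CPM in cKO skin (log2 fold change 10.69 ± 1.10 (SE), adjusted p = 0.00069). All cKO libraries were far above the untreated pair in both. Stfa2l1 had no counts in untreated skin and 5.98, 11.5 and 14.7 CPM in cKO, at least 173-fold higher (adjusted p = 0.00202). Lce3d likewise had none and 21.9, 84.4 and 87.7 CPM, at least 1040-fold higher (adjusted p = 0.00455). Lce3e went from none to 8.14, 36.8 and 18.4 CPM, at least 341-fold (adjusted p = 0.00434). For these and for Lce3b, Lce3a and Cstdc6 (at least 640, 205 and 270-fold) all cKO libraries were above both untreated ones. No stefin and no LCE3 gene differed between cKO and fl/fl at the threshold, where 18.7% of all genes did. Stfa3 stood at 936, 707 and 895 CPM in fl/fl, below all 3 cKO libraries (log2 difference 1.26 ± 0.44 (SE), adjusted p = 0.061). Left out 1 at a time, the libraries gave 7 to 10 stefins and 2 to 6 LCE3 genes, lowest without untreated library 1. With the receptor gene share as a covariate 7 and 5 rose.

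**Figure D2:**
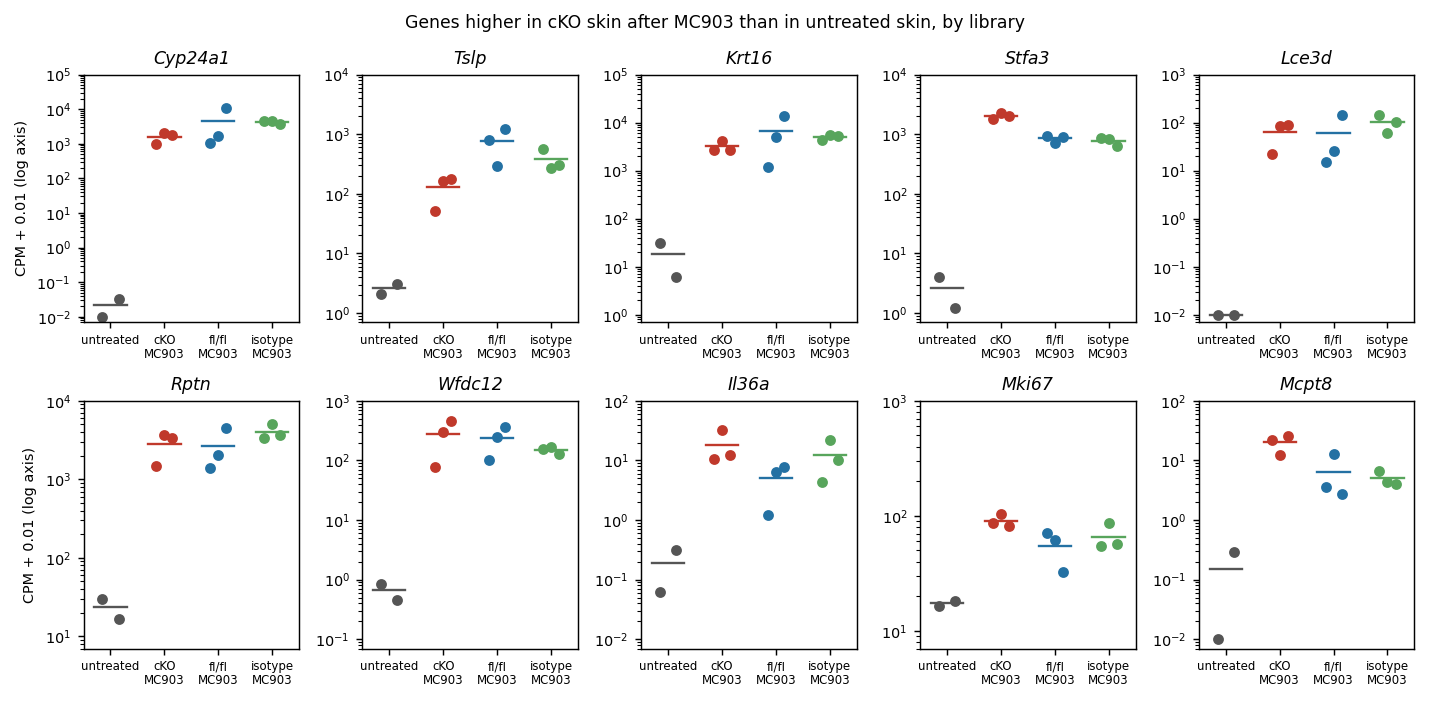
Level of 10 genes (CPM + 0.01, log axis) in each library of untreated, cKO, fl/fl and isotype skin, with a line at the group mean. In all 10 panels the 3 cKO points are above both untreated points, and in Tslp they are below the 3 fl/fl points.

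Other genes of the cornified envelope rose in part. Of 14 SPRR genes, which encode small proline-rich precursors of the envelope, 6 rose. Sprr2a2 was at 145 and 5.54 CPM in the untreated and 4352, 3988 and 4191 CPM in the cKO libraries (log2 fold change 5.79 ± 1.08 (SE), adjusted p = 0.0141). The untreated pair lay far apart, and both were below the cKO libraries. Sprr2a3 and Sprr2g also rose (log2 fold changes 6.27 and 6.62), while Sprr2b was at 0.212 and 0 CPM in untreated and 1.63, 3.65 and 1.29 CPM in cKO skin (adjusted p = 0.17). In the filaggrin family and cornified envelope list 5 of 18 rose. Rptn, repetin, was at 30.0 and 16.9 CPM in untreated and 1492, 3673 and 3322 CPM in cKO skin (log2 fold change 6.92 ± 0.73 (SE), adjusted p = 0.000692). Tchh, trichohyalin, was at 11.7 and 6.51 CPM in untreated and 475, 1072 and 887 CPM in cKO skin (log2 fold change 6.48 ± 0.63 (SE), adjusted p = 0.00041). Flg, filaggrin, which bundles keratin and is broken down to natural moisturizing factors, was at 54.2 and 33.8 CPM in untreated and 374, 716 and 532 CPM in cKO skin (log2 fold change 3.62 ± 0.81 (SE), adjusted p = 0.0242). These 3 rose without overlap. Tchhl1, a relative of trichohyalin, had no counts in untreated skin and 3.93, 8.78 and 48.8 CPM in cKO, at least 331-fold higher (adjusted p = 0.0207, and 0.148 without untreated library 1). Flg2 had 409 and 552 CPM in untreated and 93.9, 251 and 289 CPM in cKO skin, lower in every cKO library without passing the test (adjusted p = 0.0955). In fl/fl skin Flg2 was at 40.6, 49.9 and 43.3 CPM, and the difference from cKO passed (log2 difference 2.24 ± 0.41 (SE), adjusted p = 0.00368). Leaving out 1 library at a time gave 3 to 6 SPRR and 2 to 5 envelope genes, lowest without untreated library 1.

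Stress keratins and their partners rose in 5 of 12 members, the same count as in fl/fl skin and 1 fewer than with isotype. Krt16 was at 30.9 and 6.13 CPM in untreated and 2679, 4206 and 2738 CPM in cKO skin (log2 fold change 7.43 ± 1.14 (SE), adjusted p = 0.00626). Krt6a, its partner keratin, was at 289.6 and 68.8 CPM in untreated and 1750, 4849 and 2182 CPM in cKO skin (log2 fold change 4.03 ± 0.92 (SE), adjusted p = 0.025). Gjb2 and Gjb6, connexins of gap junctions, went from 11.7 and 4.57 to 239, 330.2 and 294 CPM and from 2.48 and 2.01 to 107, 166 and 124 CPM (adjusted p = 0.0141 and 0.00655). All 4 genes were higher in every cKO library, and no member of the list differed between cKO and fl/fl. Of the 10 basal keratinocyte genes 1 rose and 1 fell. Krt14 was at 1963 and 851 CPM in untreated and 9638, 15980 and 7307 CPM in cKO skin (log2 fold change 2.96 ± 0.81 (SE), adjusted p = 0.0443), a call lost with each of the 5 libraries left out. Krt19, a keratin of hair follicle and other simple or transitional epithelia, fell from 144 and 15.7 to 1.24, 1.5 and 0.999 CPM (log2 fold change -5.99 ± 0.84 (SE), adjusted p = 0.00434), and was at 2.81, 1.83 and 0.56 CPM in fl/fl. The call on Krt19 was lost without untreated library 1, which held most of its counts. Krt15, of basal and bulge keratinocytes, had 4731 and 1569 CPM in untreated and 781, 1162 and 1201 CPM in cKO skin (adjusted p = 0.0566). The stress keratin list had 2 calls in the fit without that library.

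Cell division genes rose in 8 of 22 members and fell in none, with 6 in fl/fl and 7 with isotype. Mki67, the Ki-67 antigen of dividing cells, was at 16.3 and 18.2 CPM in untreated and 86.5, 103 and 81 CPM in cKO skin (log2 fold change 2.39 ± 0.37 (SE), adjusted p = 0.00631). Birc5, survivin, was at 8.08 and 7.62 CPM in untreated and 46.3, 35.4 and 78.7 CPM in cKO skin (log2 fold change 2.77 ± 0.36 (SE), adjusted p = 0.00286). Cdk1, the mitotic kinase, was at 9.8 and 7.89 CPM in untreated and 44.3, 53.7 and 43.1 CPM in cKO skin (log2 fold change 2.41 ± 0.38 (SE), adjusted p = 0.00636). In these 3 genes every cKO library was above both untreated ones. The replication helicase genes Mcm2, Mcm3 and Mcm6 had log2 fold changes of 0.22, 0.26 and -0.04 and were not called. Tyms, thymidylate synthase, went from 16.1 and 33.9 to 149, 87.2 and 328 CPM and was the member that differed from fl/fl (log2 difference 2.90 ± 0.52 (SE), adjusted p = 0.00363). Its cKO levels order with the receptor gene share of the libraries, which over 3 libraries says little. With that share as a covariate the log2 difference was -0.20 (adjusted p = 0.987). Birc5 was the member called without untreated library 1, and without cKO library 3 the count was 12.

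The epithelial cytokine lists had 7 called genes, all risen, where 3.86% of all genes tested rose. Of 8 genes for TSLP, IL-33, IL-25 and their receptors, 1 was called, Tslp. Tslp was at 2.07 and 3.08 CPM in untreated and 52.3, 162 and 178 CPM in cKO skin (log2 fold change 5.66 ± 1.00 (SE), adjusted p = 0.0121). In fl/fl skin it was at 807, 292 and 1211 CPM and with isotype at 572, 274 and 298 CPM, each above every cKO library. The MAR1 libraries had 13, 106 and 48 CPM, above the untreated libraries and partly below the cKO range. With the receptor gene share as a covariate the call against untreated skin was lost (log2 fold change 4.90, adjusted p = 0.139). The direct test put cKO below fl/fl (log2 difference -2.56 ± 0.72 (SE), adjusted p = 0.026), a call lost with 5 of the 6 libraries left out singly (adjusted p up to 0.129, without fl/fl library 3). Il33 was at 56.9 and 24.3 CPM in untreated and 35.1, 59.5 and 29.3 CPM in cKO skin, an overlap (log2 fold change 0.03, adjusted p = 0.996). Among 12 genes of the IL-1 and IL-36 family 3 rose, all of them IL-36 cytokines, which keratinocytes release in inflamed skin. Il36a was at 0.053 and 0.308 CPM in untreated and 10.8, 31.9 and 12.2 CPM in cKO skin (log2 fold change 6.67 ± 1.17 (SE), adjusted p = 0.0105). Il36b (log2 fold change 4.45, adjusted p = 0.0381) and Il36g (2.22, adjusted p = 0.0427) were the others. Of 14 genes of the IL-6 and IL-20 family 3 rose: Il6, from 0.725 and 0.758 to 8.03, 5.35 and 7.23 CPM (adjusted p = 0.0149), Il19, from 0.955 and 1.94 to 14.5, 15.7 and 16.4 CPM (adjusted p = 0.0327), and Il24, from no counts to 2.44, 1.01 and 0.294 CPM, at least 20.1-fold (adjusted p = 0.0202). Il24 is a cytokine of the IL-20 group that acts on keratinocytes. None of the 7 cytokines named here as risen passed without untreated library 1.

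Antimicrobial and protease-related genes followed. Of 12 antimicrobial genes 5 rose, as in fl/fl skin. Wfdc12, a whey acidic protein domain inhibitor of proteases, was at 0.849 and 0.45 CPM in untreated and 76.2, 304 and 466 CPM in cKO skin (log2 fold change 8.74 ± 0.95 (SE), adjusted p = 0.00104). Defb14, a beta-defensin, had 1 count in untreated skin and 6.72, 10.5 and 7.82 CPM in cKO, a ratio of 838 with a 95% counting interval of 150 to 33100 (adjusted p = 0.00516). S100a9, a calprotectin subunit, was at 7.16 and 1.61 CPM in untreated and 30.1, 50.6 and 45.1 CPM in cKO skin (log2 fold change 3.25 ± 0.80 (SE), adjusted p = 0.0338). All 3 were higher in each cKO library. Among 17 kallikreins and Spink inhibitors, epidermal proteases and their inhibitors that govern shedding of cornified cells, 7 rose. Spink7 had no counts in untreated skin and 11.8, 26.5 and 10.8 CPM in cKO, at least 264-fold higher (adjusted p = 0.0166). Spink12 also had none there and 5.27, 22.7 and 8.17 CPM in cKO, at least 194-fold higher (adjusted p = 0.0136). Klk6 was at 39.8 and 9.35 CPM in untreated and 283, 972 and 1087 CPM in cKO skin (log2 fold change 4.99 ± 1.07 (SE), adjusted p = 0.0223). Klk13 rose to 44.3, 130.5 and 35.4 CPM from 1.93 and 0.829 CPM (adjusted p = 0.0205). Leaving out untreated library 1 left 1 antimicrobial gene (Wfdc12) and no kallikrein or Spink gene called. Pla2g4d, a cytosolic phospholipase of keratinocytes, and Akr1d1, a steroid reductase, also had no counts in untreated skin. Pla2g4d stood at 7.92, 12.3 and 16 CPM in cKO, at least 195-fold higher (adjusted p = 0.00529). Akr1d1 stood at 32.6, 194 and 55.3 CPM, at least 1520-fold higher (adjusted p = 0.0097, and 0.0802 without untreated library 1).

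Lipid genes rose in the sebaceous and sterol lists. Of 12 sebaceous gland markers 6 rose and 1 fell, against 2 risen and 1 fallen in fl/fl and 7 and 1 with isotype. Elovl3 was at 24.5 and 19.2 CPM in untreated and 547, 754 and 378 CPM in cKO skin (log2 fold change 4.68 ± 0.64 (SE), adjusted p = 0.00343). Soat1, which makes cholesterol esters, was at 76.5 and 97 CPM in untreated and 497, 469 and 398 CPM in cKO skin (log2 fold change 2.39 ± 0.40 (SE), adjusted p = 0.00891). Scd3, a stearoyl-CoA desaturase, fell from 144 and 135 to 14.3, 21.8 and 19.8 CPM (log2 fold change -2.91 ± 0.52 (SE), adjusted p = 0.0123). None of these overlapped between the groups. Of 20 sterol synthesis genes 6 rose, against 1 in fl/fl and 5 with isotype. Of all genes 3.86%, 0.769% and 1.35% rose in that order. The median log2 fold changes of the sterol list were 1.22, 1.11 and 0.96. Msmo1 and Cyp51, demethylases of the sterol pathway, went from 152 and 161 to 849.7, 1084 and 1132 CPM and from 109 and 106 to 562, 609 and 597 CPM (adjusted p = 0.00634 and 0.0105). Both were also above every fl/fl library (log2 differences 1.53 and 1.14, adjusted p = 0.00876 and 0.0372). Without untreated library 1 the counts of risen genes were 1 (Elovl3) and 0.

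Basophil markers were present after MC903 in the cKO libraries. Of 12 tested, 2 rose, and of 11 mast cell markers none passed, by edgeR's test, where 5 had an unadjusted p under 0.05. Over all genes 6015 of 20940 had an unadjusted p under 0.05 in the same test. Mcpt8, a protease specific to basophils, was at 0 and 0.284 CPM in untreated and 21.9, 12.1 and 26 CPM in cKO skin (log2 fold change 7.17 ± 1.2 (SE), adjusted p = 0.00891). In fl/fl it was at 3.6, 12.8 and 2.68 CPM, and the difference from cKO was not called (log2 difference 1.65 ± 0.76 (SE), adjusted p = 0.137). Cd200r3, a receptor of basophils and mast cells, was at 1.4 and 8.48 CPM in untreated and 83.6, 28 and 111 CPM in cKO skin (log2 fold change 3.91 ± 0.73 (SE), adjusted p = 0.0144). The order of Mcpt8 and of Cd200r3 over the 3 cKO libraries is that of their receptor gene share. An order over 3 libraries says little, and how many of all genes share it was not counted. The MAR1 libraries, which have the highest share, had 18, 31.1 and 27.3 CPM of Mcpt8 and 205, 281 and 335 CPM of Cd200r3. Prss34, another basophil protease, was at 0.195 and 0.0474 CPM in untreated and 0.814, 0.489 and 1.29 CPM in cKO skin (adjusted p = 0.251), and Il4 at 1.54 and 1.18 CPM in untreated and 1.31, 1.01 and 1.23 CPM in cKO skin (adjusted p = 0.924). Mcpt4, of connective tissue mast cells, was at 224 and 113 CPM in untreated and 437, 264 and 258 CPM in cKO skin (adjusted p = 0.17). In bulk skin more or fewer cells of a type and more or less RNA per cell cannot be told apart. Melanocyte markers rose in 4 of 9 members and in none with fl/fl or isotype against the same untreated libraries. Their median log2 fold change was 1.97 in cKO, 1.49 with isotype and 0.37 in fl/fl. Without overlap, 5 stood above untreated skin in cKO, 6 with isotype and 0 in fl/fl. These markers took 0.0116% to 0.0147% of the cKO and 0.0173% to 0.0367% of the MAR1 libraries. Dct, a melanin synthesis enzyme, was at 10.2 and 19.1 CPM in untreated and 65.6, 44.8 and 61.6 CPM in cKO skin (log2 fold change 1.97 ± 0.43 (SE), adjusted p = 0.0231) and Tyr, tyrosinase, at 1.22 and 5.57 CPM in untreated and 16.2, 11.4 and 33 CPM in cKO skin (log2 fold change 2.58 ± 0.67 (SE), adjusted p = 0.0379). With the receptor gene share as a covariate no melanocyte and no basophil marker passed.

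**Figure D3:**
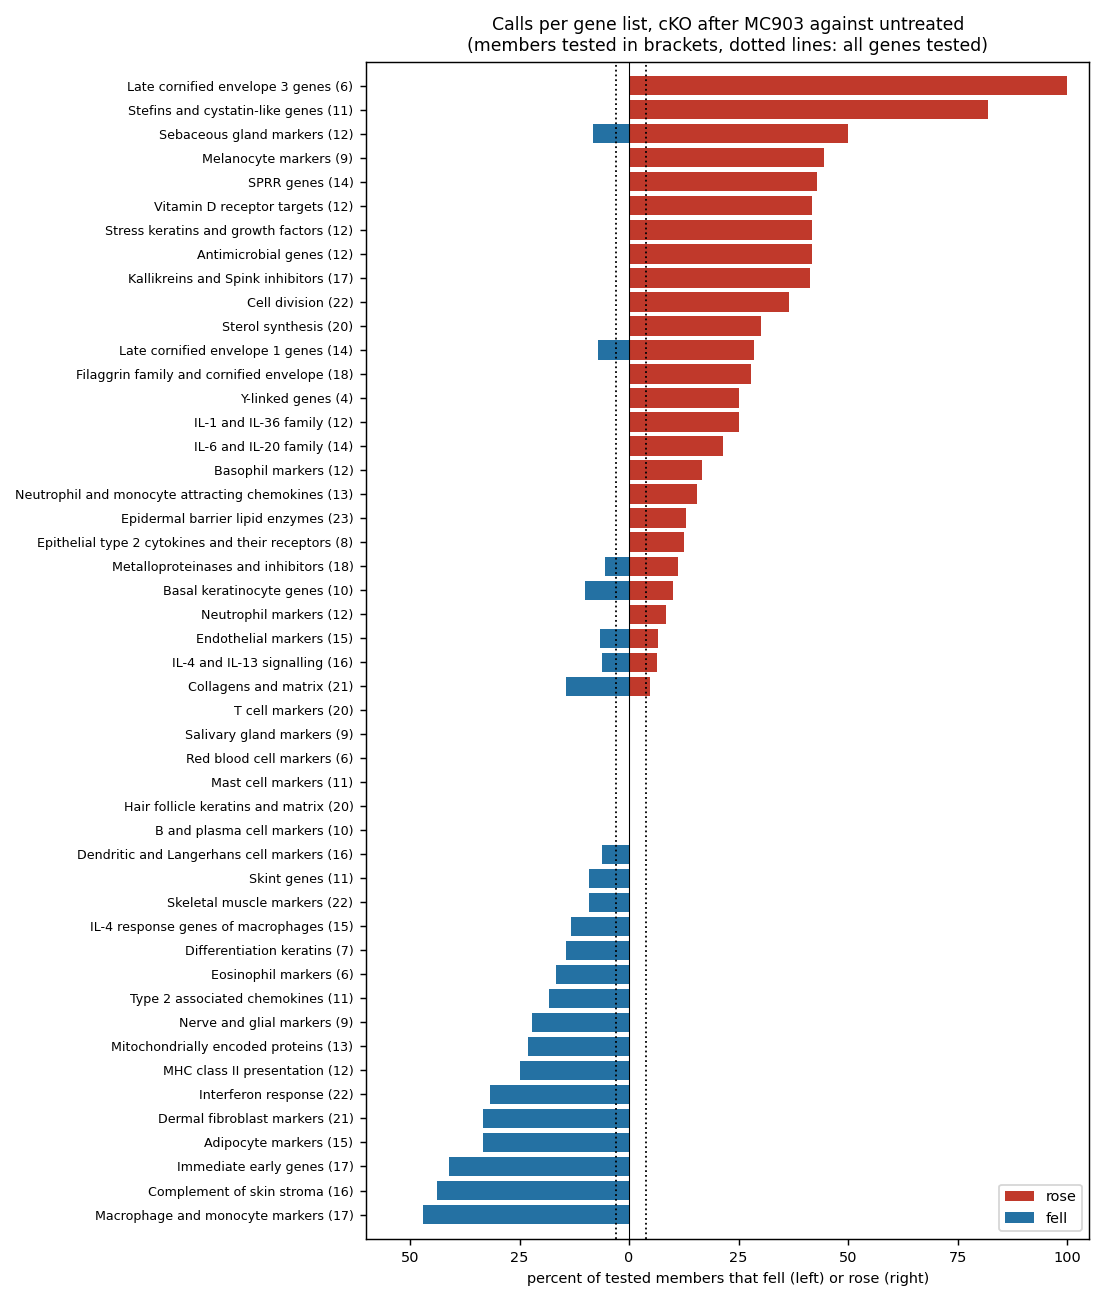
Percent of tested members of each of the 48 gene lists that rose (right) or fell (left) in cKO skin after MC903 against untreated skin. Dotted lines mark the 3.86% risen and 2.96% fallen of all genes tested. The LCE3 and stefin lists have the highest risen shares, the macrophage and complement lists the highest fallen shares.

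Some fibroblast genes of the dermis stood lower in cKO skin. Of 15 endothelial markers, also of the dermis, 1 rose and 1 fell, with a median log2 fold change of 0.51. Of 21 dermal fibroblast markers 7 fell and none rose, with a median log2 fold change of -1.36. Against the same untreated libraries 1 fell in fl/fl and 7 with isotype. Dpp4, of upper and fascial fibroblasts, was at 56.7 and 58.7 CPM in untreated and 4.88, 8.84 and 4.52 CPM in cKO skin (log2 fold change -3.24 ± 0.48 (SE), adjusted p = 0.00499). Mfap5, a microfibril protein, was at 147 and 76.7 CPM in untreated and 7.32, 10.5 and 8.93 CPM in cKO skin (log2 fold change -3.65 ± 0.57 (SE), adjusted p = 0.00634). Sfrp2, a secreted Wnt modulator, was at 102 and 37.4 CPM in untreated and 0.99, 2.9 and 2 CPM in cKO skin (log2 fold change -5.14 ± 0.81 (SE), adjusted p = 0.0064). These genes and Dpt, dermatopontin (1009 and 622 against 82.5, 85.6 and 20.0 CPM, adjusted p = 0.00995), had no cKO library near the untreated range. Col1a1, the main collagen chain, was at 2174 and 5084 CPM in untreated and 1227, 984 and 190.0 CPM in cKO skin, lower in all cKO libraries without passing the test (adjusted p = 0.079). The summed share of fibroblast markers was 1.5% and 2.46% of the untreated, 0.697%, 0.649% and 0.25% of the cKO and 0.235% to 0.898% of the fl/fl libraries. With the receptor gene share as a covariate no fibroblast marker passed. Without untreated library 1 the 3 that fell were Dpp4, Mfap5 and Sfrp2. In the collagen and matrix list 3 of 21 fell (Col14a1, Fn1 and Sparc) and Tnc rose. Tnc, tenascin C, a matrix protein of wounded and inflamed skin, went from 8.12 and 4.19 to 149, 179.8 and 62.2 CPM (log2 fold change 4.40 ± 0.79 (SE), adjusted p = 0.0123), and to 82.5, 233 and 127 CPM in fl/fl.

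Adipocyte markers fell in 5 of 15 members, none in fl/fl and 8 with isotype. Car3, a carbonic anhydrase abundant in fat and muscle, was at 2712 and 2202 CPM in untreated and 242, 133 and 49.1 CPM in cKO skin (log2 fold change -4.12 ± 1.03 (SE), adjusted p = 0.0364). Plin1, the lipid droplet protein, was at 372 and 295 CPM in untreated and 44.6, 19.2 and 34.7 CPM in cKO skin (log2 fold change -3.34 ± 0.78 (SE), adjusted p = 0.0282). Adipoq, adiponectin, was at 725 and 444 CPM in untreated and 136, 58.4 and 65 CPM in cKO skin (log2 fold change -2.75 ± 0.73 (SE), adjusted p = 0.0405). All cKO libraries were lower. Calls numbered 0 to 1 with 1 library left out. How deep the sections reached into fat and muscle in each library is not stated.

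Macrophage and complement genes fell in the largest shares. Of 17 macrophage and monocyte markers 8 fell, with none in fl/fl or isotype skin, and of 16 complement genes 7 fell, with none and 2. Over all genes 2.96% fell in cKO, 0.95% in fl/fl and 1.72% with isotype. The median log2 fold changes of the macrophage markers were -1.63, -0.31 and -0.49 in that order. Those of the complement genes were -1.39, -0.82 and -0.76. Without overlap 15, 3 and 10 macrophage markers and 11, 9 and 11 complement genes stood below untreated skin. Of all 20940 genes 4611, 3229 and 4731 did. Folr2, of tissue-resident macrophages, was at 163 and 144 CPM in untreated and 7.89, 7.21 and 0.588 CPM in cKO skin (log2 fold change -4.86 ± 0.99 (SE), adjusted p = 0.0202). Csf1r, the receptor for colony stimulating factor 1, was at 189.6 and 168 CPM in untreated and 77.6, 76.9 and 43.4 CPM in cKO skin (log2 fold change -1.44 ± 0.34 (SE), adjusted p = 0.0294). Cd68, a lysosomal protein of macrophages, was at 76.2 and 53.6 CPM in untreated and 12.9, 13.4 and 1.7 CPM in cKO skin (log2 fold change -2.79 ± 0.67 (SE), adjusted p = 0.0308). cKO library 3 was the lowest in all 3 genes, and the groups did not overlap. Mrc1, the mannose receptor, was at 113 and 227 CPM in untreated and 125, 141 and 188 CPM in cKO skin, an overlap (adjusted p = 0.867). C3, the central complement protein, was at 543 and 641 CPM in untreated and 106, 79.5 and 63.7 CPM in cKO skin (log2 fold change -2.84 ± 0.46 (SE), adjusted p = 0.00687). C1ra, a protease of the classical pathway, was at 103 and 116 CPM in untreated and 31.7, 38.7 and 24.3 CPM in cKO skin (log2 fold change -1.80 ± 0.40 (SE), adjusted p = 0.0242). Without untreated library 1 no macrophage marker and 1 complement gene (C3) passed, and with the receptor gene share as a covariate none of either list did.

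**Figure D4:**
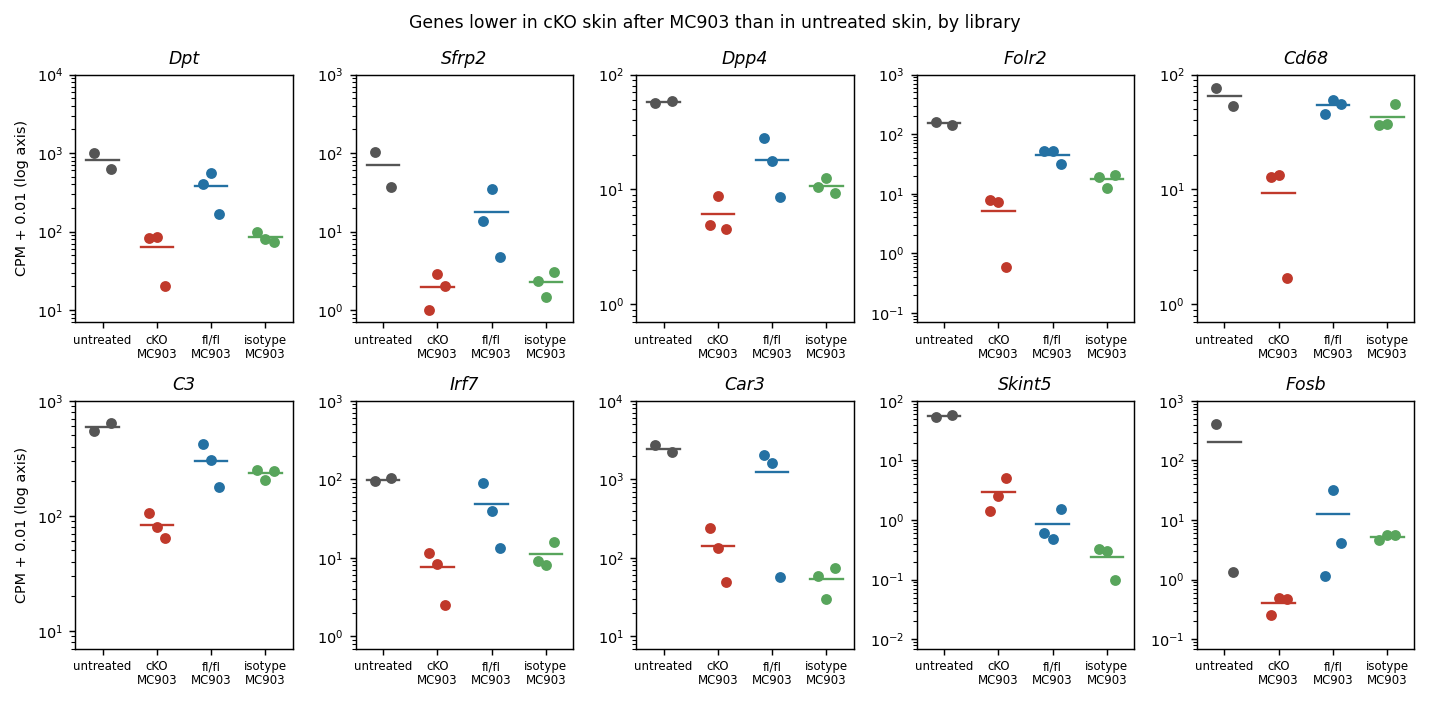
Level of 10 genes (CPM + 0.01, log axis) in each library of untreated, cKO, fl/fl and isotype skin, with a line at the group mean. The 3 cKO points are below both untreated points in all 10 panels. In Fosb the untreated points are 405 and 1.35 CPM.

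Some antigen presentation and interferon genes fell. Of 12 MHC class II genes 3 fell, against none in fl/fl and 4 with isotype. Of 22 interferon response genes 7 fell, against none in fl/fl and 9 with isotype. H2-Aa, an MHC class II alpha chain, was at 917 and 994 CPM in untreated and 135, 171 and 83.7 CPM in cKO skin (log2 fold change -2.88 ± 0.77 (SE), adjusted p = 0.0422). Irf7, a factor that drives interferon production, was at 95.2 and 103 CPM in untreated and 11.7, 8.45 and 2.53 CPM in cKO skin (log2 fold change -3.71 ± 0.69 (SE), adjusted p = 0.0144). Ifi27l2a was at 529.6 and 434 CPM in untreated and 85, 26 and 51.3 CPM in cKO skin (log2 fold change -3.15 ± 0.62 (SE), adjusted p = 0.0166). Every cKO library was below both untreated ones in these 3. Rsad2, viperin, was at 7.55 and 15.5 CPM in untreated and 13.9, 10.8 and 14.2 CPM in cKO skin, an overlap (adjusted p = 0.873). Left out singly, the libraries gave no MHC class II call and 1 to 4 interferon genes. Gvin1, an interferon-inducible GTPase, fell from 11 and 54.9 CPM to no counts, at least 260-fold lower (adjusted p = 0.0263). The next largest decreases to no counts were those of Smco3, Pgr, Dmbt1, Fgg and Tceal7, at least 60.2, 48.7, 39, 31.7 and 23.4-fold. Agtr2 and Asb15 fell at least 14.2 and 9.27-fold, and Pon1, with 3 counts in cKO, 197-fold (95% counting interval 67.2 to 958). Each of these calls was lost with 1 or more libraries left out. Pgr encodes the progesterone receptor, and Pon1 a paraoxonase known from serum.

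Immediate early genes, which stress and handling induce within minutes, fell in 7 of 17 members by the test. Fosb was at 405 and 1.35 CPM in the untreated and 0.248, 0.489 and 0.47 CPM in the cKO libraries (log2 fold change -8.98 ± 1.82 (SE), adjusted p = 0.0202). Dusp1, a phosphatase, was at 774 and 80.5 CPM in untreated and 28.4, 32.5 and 23.3 CPM in cKO skin (log2 fold change -3.93 ± 0.65 (SE), adjusted p = 0.00891). Atf3 was at 352 and 16.2 CPM in untreated and 1.17, 2.97 and 1.76 CPM in cKO skin (log2 fold change -6.54 ± 1.06 (SE), adjusted p = 0.00891). In each gene untreated library 1 stood far above untreated library 2, and the cKO libraries were below both. Without untreated library 1 none of the list passed, and without untreated library 2, 8 did.

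Type 2 associated chemokines, genes of IL-4 and IL-13 signalling and IL-4 response genes of macrophages were called in some members. Of all genes tested 6.82% were called. Of 11 type 2 associated chemokines 2 fell and none rose. Cxcl14, made by keratinocytes and fibroblasts, was at 279 and 121 CPM in untreated and 53.9, 55.5 and 32 CPM in cKO skin (log2 fold change -2.08 ± 0.48 (SE), adjusted p = 0.0256). Ccl11, eotaxin, an attractant of eosinophils that fibroblasts make, was at 74.4 and 38.5 CPM in untreated and 12.9, 16.2 and 14 CPM in cKO skin (log2 fold change -1.97 ± 0.51 (SE), adjusted p = 0.0383). Ccl11 in fl/fl was at 38.2, 50.7 and 9.62 CPM, which overlaps cKO (log2 difference -1.19 ± 0.47 (SE), adjusted p = 0.0894). Of 16 genes of IL-4 and IL-13 signalling Il13ra2 rose and Cish fell. Il13ra2, the decoy receptor for IL-13, was at 2.17 and 2.27 CPM in untreated and 18.7, 21.6 and 20.9 CPM in cKO skin (log2 fold change 3.19 ± 0.51 (SE), adjusted p = 0.00655). Cish, an inhibitor of cytokine signalling, was at 53.7 and 36.8 CPM in untreated and 14.8, 13.5 and 5.93 CPM in cKO skin (log2 fold change -1.98 ± 0.43 (SE), adjusted p = 0.0222). Il13 was at 0.584 and 0.213 CPM in untreated and 0, 0.489 and 0 CPM in cKO skin and Stat6 at 88.5 and 81.9 CPM in untreated and 64, 76.8 and 44.1 CPM in cKO skin, neither of them called (adjusted p = 0.699 and 0.315). Of 15 IL-4 response genes of macrophages 2 fell, Retnla from 689.7 and 723 to 10.7, 1.37 and 62.9 CPM (log2 fold change -4.83 ± 1.27 (SE), adjusted p = 0.0415) and Mgl2 from 95.2 and 161 to 30.0, 17.2 and 17 CPM (log2 fold change -2.58 ± 0.62 (SE), adjusted p = 0.0307). Another 2 members were higher in cKO without overlap and were not called, Chil3 (adjusted p = 0.322) and Chil4, both chitinase-like proteins. Chil4 went from no counts to 4.88, 2.25 and 3.11 CPM, at least 55.1-fold (adjusted p = 0.0574), and was at 0, 1.47 and 0 CPM in fl/fl skin. Without untreated library 1 no member of these 3 lists passed.

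The Skint genes, epidermal relatives of butyrophilins, of which Skint1 is needed for the thymic selection of epidermal γδ T cells, had fewer calls in cKO than in fl/fl or isotype skin, each against the same untreated libraries. Of 11 tested 1 fell in cKO, against 7 in fl/fl and 6 with isotype. Skint5 was at 53.6 and 58.9 CPM in untreated, 1.42, 2.54 and 4.99 CPM in cKO and 0.599, 0.468 and 1.5 CPM in fl/fl skin (log2 fold change -4.24 ± 0.66 (SE), adjusted p = 0.00634, cKO against untreated). Skint3 was at 86.8 and 84.9 CPM in untreated, 36.6, 115 and 112 CPM in cKO and 8.77, 26 and 11.9 CPM in fl/fl skin. The cKO libraries were above every fl/fl library in Skint3 (log2 difference 2.49 ± 0.48 (SE), adjusted p = 0.00433) and overlapped the untreated range (adjusted p = 0.99). Skint8 was at 5.06, 4.99 and 17 CPM in cKO and 0.0545, 0.446 and 0.56 CPM in fl/fl skin (log2 difference 4.65 ± 0.78 (SE), adjusted p = 0.00314). The MAR1 libraries, which carry no deletion, had 101.2, 75.7 and 57.3 CPM of Skint3 and 18.2, 37.9 and 51.7 CPM of Skint8, above every fl/fl library and not below the lowest cKO library. In all, 6 of 11 Skint genes were higher in cKO than in fl/fl by the direct test and none lower, where 12.7% of all genes were higher. All 11 had positive differences.

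The direct comparison with fl/fl tests whether a level after MC903 differs between cKO and fl/fl skin, without the untreated libraries. The cKO mice also carried Cre. Receptor gene share (0.467% to 2.58% against 0.0479% to 0.0768%), skeletal muscle share and total counts did not overlap between these groups. Il4ra deletion cannot be told apart from these differences here. The comparison called 3908 of 20940 genes, 18.7%, with 2656 higher (12.7%) and 1252 lower (5.98%) in cKO. The fl/fl libraries differed among themselves: salivary gland markers took 0.11%, 1.93% and 0.000814% of their counts and B cell markers 0.221%, 0.0508% and 0.000238%. Without fl/fl libraries 1 and 2, an alternative chosen after seeing the data, 655 genes were called, and with the receptor gene share as a covariate 14. Of the receptor genes 388 were higher in cKO. Cxcl13, a B cell attracting chemokine, was at 2.09, 2.06 and 2.29 CPM in cKO, 126, 32.5 and 255 CPM in fl/fl and 87.8, 91.7 and 92.8 CPM in isotype skin (log2 difference -6.01 ± 0.74 (SE), adjusted p = 0.00212). The untreated libraries had 6.12 and 11.9 CPM, above every cKO library. The MAR1 libraries had 7.54, 6.63 and 1.5 CPM, which overlaps the cKO range. The call on Cxcl13 was made with each cKO or fl/fl library left out and without fl/fl libraries 1 and 2, and lost with the receptor gene share as a covariate (log2 difference -6.32, adjusted p = 0.228). Il13ra2 was at 8.39, 8.06 and 7.67 CPM in fl/fl, below all cKO libraries (log2 difference 1.34 ± 0.40 (SE), adjusted p = 0.0333). Cish was at 58.6, 42.7 and 36.9 CPM in fl/fl, above all cKO libraries (log2 difference -2.01 ± 0.40 (SE), adjusted p = 0.00517). Col7a1, the collagen of anchoring fibrils, was at 129, 90.5 and 109 CPM in cKO and 8.34, 27.9 and 19.6 CPM in fl/fl (log2 difference 2.55 ± 0.44 (SE), adjusted p = 0.00334).

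Among fibroblast and macrophage markers, 5 of 21 and 7 of 17 were lower in cKO than in fl/fl, and none was higher. Of all genes 5.98% were lower. Mfap5 was at 46.9, 80.1 and 25.3 CPM and Dpt at 405, 564 and 168 CPM in fl/fl, above all cKO libraries (log2 differences -2.51 and -2.60, adjusted p = 0.00597 and 0.00864). In isotype skin Dpt was at 100.0, 80.0 and 72.8 CPM, which overlaps the cKO range. Chil3, a chitinase-like protein of IL-4-treated macrophages, was at 1.8, 1.6 and 1.06 CPM in cKO, 3.92, 4.19 and 7.93 CPM in fl/fl and 35.5, 21.7 and 42.3 CPM in isotype skin (log2 difference -1.84 ± 0.57 (SE), adjusted p = 0.038). All cKO libraries were below every fl/fl and isotype library there and above the untreated libraries (0.884 and 0.639 CPM). The call against fl/fl was lost with any 1 cKO or fl/fl library left out. Ccl22 was at 10.5, 5.48 and 5.82 CPM in cKO and 262, 59.5 and 5.13 CPM in fl/fl (log2 difference -3.90 ± 0.97 (SE), adjusted p = 0.0158). Its fl/fl levels order with the B cell marker share of those libraries, and also with their T cell, skeletal muscle, red blood cell and mitochondrial shares. An order over 3 libraries cannot single out any of these. Without fl/fl libraries 1 and 2, which leaves 1 fl/fl library, the log2 difference was 0.79.

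**Figure D5:**
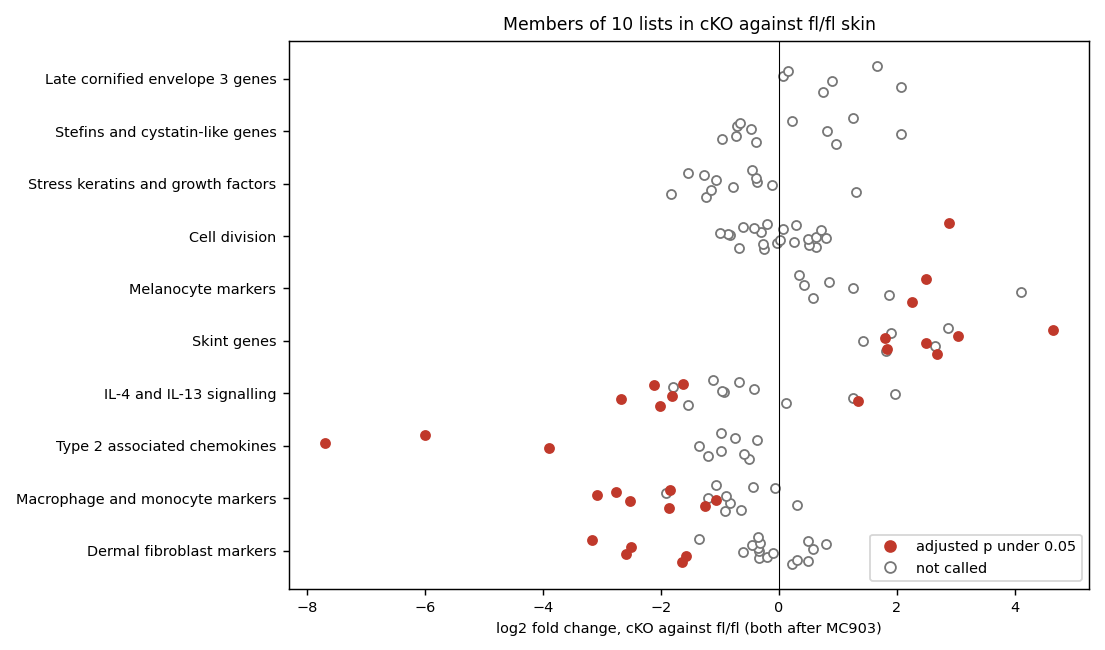
Log2 fold change of each member of 10 lists in cKO against fl/fl skin, both after MC903, 1 point per gene, filled where the adjusted p is under 0.05. The LCE3, stefin and stress keratin lists hold no filled point, the Skint points all lie above 0, and the called macrophage and fibroblast points all lie below 0.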

How the data were processed

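Bulk RNA-seq of 14 skin libraries was used, in 5 groups taken from the labels. The authors deposited estimated counts per gene. Per the submitters' processing notes the tools and build were Salmon 1.2.1, DESeq2 1.44.0 and GRCm39, with no parameters given in the sources used here. The deposited expected counts were rounded to whole numbers, and 20940 of 35328 entries passed edgeR's filterByExpr. All 14 libraries entered 1 edgeR 4.0.16 quasi-likelihood fit (R 4.3.3, limma 3.58.1) with TMM scaling, robust dispersion and 5 group means, leaving 9 residual degrees of freedom. The common dispersion was 0.361. Genes with an adjusted p (Benjamini-Hochberg) below 0.05 were called. Levels are CPM scaled with TMM. Folds against a group with no counts use a floor of 3 counts per library, and intervals and floors cover counting error only. Total counts ran from 5781757 to 55299671.

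Named genes were Il4ra and Pdgfra, the 10 largest called increases and decreases without overlap and with at least 1 CPM in the higher group, leaving out uncharacterized, receptor, pseudogene and antigen receptor entries, and, per list described, the 4 members with the smallest p and those called against fl/fl. A few further list members are given for their role. Not every gene the rule names is described in the text, and 1 result is not reported here. Members and lists were chosen with earlier results of these data known. Of the 48 lists, each has its calls in the plot of calls per gene list. Alternatives were RLE scaling, DESeq2 1.42.0, other filters, thinned counts, a fold minimum, other sample sets, covariates and each library left out. The scripts were tested on simulated counts. Replicates are separate samples in the labels, and whether all are separate mice is not settled by them, so p-values then reflect only how far these samples differ, which may be technical.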

Additional observations from a re-analysis of the deposited data

Results flagged for a closer look

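Under the same MC903 treatment, 75 of the named genes reported stood at a level in the skin of Pdgfra-CRE/Il4ra fl/fl (cKO) mice that differed from fl/fl skin by edgeR's quasi-likelihood test (adjusted p under 0.05 over all genes tested). List members that passed this test were named for that reason, so the count of 75 is no result of its own. Of all genes tested 18.7% differed. The log2 differences of the 75 genes, cKO minus fl/fl, follow by gene group, with values at the floor of 3 counts per library given as bounds. Above fl/fl in epidermal genes were Skint1 2.69, Skint3 2.49, Skint5 1.79, Skint6 3.03, Skint8 4.65, Skint11 1.83, Flg2 2.24, Ivl 1.79, Krt15 1.39, Defb6 1.25 and Col7a1 2.55. Above fl/fl in lipid, pigment and other genes were Soat1 1.47, Msmo1 1.53, Cyp51 1.14, Mc5r 1.69, Dct 2.26, Tyr 2.49, Tyms 2.90, Cd200r3 4.59, Il13ra2 1.34, Il20 at least 4.45, Calb1 at least 5.22 and Rsad2 1.56. Below fl/fl in cornified envelope and protease genes were Tgm3 -3.55, Cdsn -3.09, Sprr2b -5.31, Sprr2h -2.67, Slpi -2.62, Klk9 -2.25, Klk11 -1.42 and Klk13 -2.76. The fl/fl level of these 8 genes rests on fl/fl library 3, without which none was called and the log2 differences were Tgm3 -1.47, Cdsn -1.06, Sprr2b -0.03, Sprr2h -0.45, Slpi -0.28, Klk9 -0.21, Klk11 -0.09 and Klk13 -0.54. Below fl/fl in cytokine, chemokine and signalling genes were Il4ra -1.81, Tslp -2.56, Il17ra -1.39, Il2rg -2.68, Socs1 -2.11, Socs3 -1.63, Cish -2.01, Myc -1.28, Cxcl13 -6.01, Ccl5 -7.69, Ccl22 -3.90, Chil3 -1.84 and Fcer2a -7.58. Below fl/fl in macrophage, complement, interferon and MHC class II genes were Folr2 -3.09, Lyve1 -2.76, Cd68 -2.52, Csf1r -1.06, Lyz2 -1.85, C1qb -1.85, C1qc -1.25, C3 -1.86, Cfb -1.60, Irf7 -2.66, Isg15 -2.34, Ifi27l2a -2.60, Gvin1 at most -7.35, H2-DMa -2.47, H2-Eb2 -6.00, H2-Oa -5.73 and H2-Ob -5.47. Below fl/fl in fibroblast, fat and matrix genes were Dpt -2.60, Dpp4 -1.57, Sfrp2 -3.16, Mfap5 -2.51, Clec3b -1.65, Col14a1 -2.30 and Car3 -3.13. Below fl/fl in immediate early genes were Fosb -4.97, Dusp1 -1.84 and Atf3 -3.01, and among the largest decreases against untreated skin Agtr2 at most -3.92, Asb15 at most -3.35, Pon1 -5.09 and Tceal7 at most -5.21. B cell markers took 0.221%, 0.0508% and 0.000238% of fl/fl libraries 1, 2 and 3 and 0.00184% to 0.00612% of the cKO libraries, and the part of such content in these differences was not tested beyond the fit without fl/fl libraries 1 and 2. In that fit, which leaves 1 fl/fl library, the difference turned positive for Fcer2a (5.18), H2-Ob (8.62), H2-Oa (4.42), H2-Eb2 (1.77), Car3 (1.57), H2-DMa (1.15), Il2rg (0.95), Ccl22 (0.79), Col14a1 (0.48), Isg15 (0.30), Socs1 (0.26), Cfb (0.03) and Clec3b (0.02), was 0.00 for Gvin1, and was -0.33 for Ccl5, no longer called. The values of Fcer2a and H2-Ob are set against a library with no counts of them and are no measure of size.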

How the results depend on the processing

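The 1429 genes called in cKO (Pdgfra-CRE/Il4ra fl/fl, MC903) against untreated skin became 4878 with DESeq2, 165 with only the groups compared in the fit, 848 without the MAR1 libraries, 125 with the receptor gene share and 653 with the skeletal muscle share as a covariate, and 118 with the untreated libraries summed, which leaves fewer samples. Leaving out 1 library gave 107 (untreated library 1) to 1942 (cKO library 2) calls. RLE scaling gave 1373 and no filter 1302. The 3908 calls against fl/fl skin became 5995 with DESeq2, 1410 with only the groups compared, 14 with the receptor gene share and 1692 with the muscle share as a covariate, and 655 without fl/fl libraries 1 and 2, with 2335 (cKO library 3) to 4234 (fl/fl library 3) when 1 library was left out. Without untreated library 2, 1651 genes rose and 162 fell, and with DESeq2 3492 and 1386, against 809 and 620 in the report. Beyond fewer samples in the fit, the cause was not tested.

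Of 26 same-numbered pairs 3 had a correlation of deviations over 0.1, and 13 of 52 library-by-group comparisons were best with their own number. The numbers are those of the sample titles and differ in part from those in the library names. These values therefore cannot settle whether samples are paired. With a replicate block 390 genes were called against untreated and 3063 against fl/fl.

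Some log2 differences from fl/fl changed sign. With the receptor gene share as a covariate they were Fosb 4, Tgm3 0.15, Cdsn 0.26, Klk13 0.42, Tyms -0.20, Socs3 0.65, Rsad2 -0.18, Tyr -0.88, Dusp1 1.19 and Atf3 0.72. Without fl/fl libraries 1 and 2, chosen after seeing the data, they were Gvin1 0, Ccl22 0.79, Socs1 0.26, Il2rg 0.95, Fcer2a 5.18, H2-DMa 1.15, H2-Oa 4.42, H2-Ob 8.62, H2-Eb2 1.77, Clec3b 0.016, Col14a1 0.48, Car3 1.57, Isg15 0.30 and Cfb 0.029. The cause was not tested. Depth limits genes with no counts in a group to bounds, and 2 untreated libraries give little hold on the spread.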
